A study of Mus musculus with 2 samples.

Results

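Notch signalling genes were followed across the cell groups of 2 single-cell RNA sequencing libraries from adult mouse spinal cord. The set was taken by name and held 10 genes of the 24071 listed in the deposited tables: the receptors Notch1, Notch2, Notch3 and Notch4, the ligands Jag1, Jag2, Dll1 and Dll4, and the target genes Hes1 and Hey1. All 10 were found. The animals were C57BL/6j mice of 10 to 12 weeks that carried Cre at both copies of Clec9a, the gene of DNGR-1, and a tdTomato reporter behind a loxP-flanked stop at both copies of Rosa26. Cre is thus made where the Clec9a promoter has been active, so the label records past as well as present expression. Both libraries came from the same sort of live CD45- CD133+ cells after myelin removal, with CD133+ DNGR-1 traced cells (tdTomato-positive) in one tube and CD133+ non-traced cells in the other. Each was a single library and the number of animals behind it was not given in the sources used here. There was therefore no replicate check, no test was run, and cells were not used as replicates.

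Notch receptors are membrane proteins that are activated by ligands of the Jagged and Delta-like families on a neighbouring cell. Cleavage by ADAM proteases and γ-secretase then frees the intracellular domain, which joins the DNA-binding protein RBPJ and switches on genes of the Hes and Hey families of transcriptional repressors. In vessels the pathway is best known for Dll4 and Jag1 signals in arterial endothelium and for Notch3 in pericytes and smooth muscle. In the central nervous system it is known for holding neural progenitors undifferentiated.

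Levels are counts of unique molecular identifiers (UMIs, tags of single captured RNA molecules) summed over the cells of a group and divided by the total of that group, times 1000000 (counts per 1000000 UMIs, CPM), with exact 95% Poisson intervals. These intervals cover counting error only. Only transcript 3′ ends were sequenced, so a level compares one gene between groups and was not used to rank different genes. A gene was called past 2-fold where log2(CPM + 1) differed by at least 1 and at least 10 CPM was reached in either group.

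The non-traced table held 25411 cells with a median of 7218 UMIs and 4825 cells with a median of 8566 UMIs were in the traced table. The libraries shared 42 cell barcodes. Each library was clustered without the Notch genes. The non-traced cells gave 20626 endothelial-like cells, of which 3964 were arterial-like, 13907 capillary-like and 2684 venous-like, with 71 further cells led by Apln, Kit and Angpt2. They also gave 168 pericyte-like, 141 smooth muscle-like and 1119 ependymal-like cells. The traced library gave 4708 ependymal-like and 64 endothelial-like cells. The class markers were found in over 50% of cells for 8 of 8 endothelial, 8 of 8 mural (in pericyte-like cells), 7 of 8 pericyte, 7 of 8 smooth muscle and, in each library, 10 of 10 ependymal genes. The same held for 5 of 8 mural genes in smooth muscle-like cells (lowest 4.97% of cells), 8 of 12 arterial genes (lowest 9.23%) and 7 of 9 venous genes (lowest 4.66%), with 8 of 8 capillary genes. The summed level of the arterial markers was 4031 CPM in arterial-like, 669 in capillary-like and 437 in venous-like cells. That of the venous markers was 5693 CPM in venous-like cells, against 2111 and 874 in capillary-like and arterial-like cells. The capillary markers separated the groups little, at 6797 CPM in capillary-like, 5955 in venous-like and 5683 in arterial-like cells. Droplets that carried mural and endothelial markers together (2335) or ependymal and endothelial markers together (779) were kept apart. The smooth muscle-like cluster still carried endothelial transcripts, with 8 endothelial markers at a median of 27.9% of their endothelial-like level (range 25.7 to 28.6), and pericyte-like cells had 13.1% (11.5 to 17.3). Mural values are therefore given below with and without the cells that carried these UMIs.

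In the GRCm38 annotation, Notch1 lies on chromosome 2 (positions 26457903 to 26516663, minus strand), as do Dll4 (119325784 to 119335962, plus strand) and Jag1 (137081456 to 137116644, minus strand). Notch2 (98013527 to 98150361, plus strand) and Hey1 (8663359 to 8667256, minus strand) are on chromosome 3. Notch3 (32120820 to 32166852, minus strand), Notch4 (34564268 to 34588503, plus strand) and Dll1 (15367354 to 15376872, minus strand) are on chromosome 17, Jag2 is on chromosome 12 (112907819 to 112929776, minus strand) and Hes1 on chromosome 16 (30064384 to 30067796, plus strand). The 250 bases before the RefSeq start site of Dll4, Jag1 and Notch3 are shown, as a ligand graded from artery to vein, a ligand shared between artery and vessel wall, and the mural receptor. Hey2, a target gene outside the set that was high in mural cells, is shown beside them. Capitals mark matches to TGGGAA, the core of the RBPJ binding motif, on either strand (TTCCCA on the other).
Dll4, chr2:119325534-119325783, plus strand: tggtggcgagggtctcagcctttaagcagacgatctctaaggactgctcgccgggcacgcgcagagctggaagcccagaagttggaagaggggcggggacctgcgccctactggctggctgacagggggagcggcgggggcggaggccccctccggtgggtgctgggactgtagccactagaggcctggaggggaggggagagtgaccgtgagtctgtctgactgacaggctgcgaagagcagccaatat
Jag1, chr2:137116521-137116770, minus strand: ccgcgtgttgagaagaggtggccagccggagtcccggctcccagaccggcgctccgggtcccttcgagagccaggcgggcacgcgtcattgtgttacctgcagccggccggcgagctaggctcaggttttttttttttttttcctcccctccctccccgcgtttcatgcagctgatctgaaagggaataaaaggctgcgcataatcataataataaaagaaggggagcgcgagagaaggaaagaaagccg
Notch3, chr17:32166891-32167140, minus strand: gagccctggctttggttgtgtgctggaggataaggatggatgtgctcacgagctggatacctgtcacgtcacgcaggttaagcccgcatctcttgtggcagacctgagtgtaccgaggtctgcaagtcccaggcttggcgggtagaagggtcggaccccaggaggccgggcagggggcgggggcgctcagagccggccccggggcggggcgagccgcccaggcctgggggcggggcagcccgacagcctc
Hey2, chr10:30842784-30843033, minus strand: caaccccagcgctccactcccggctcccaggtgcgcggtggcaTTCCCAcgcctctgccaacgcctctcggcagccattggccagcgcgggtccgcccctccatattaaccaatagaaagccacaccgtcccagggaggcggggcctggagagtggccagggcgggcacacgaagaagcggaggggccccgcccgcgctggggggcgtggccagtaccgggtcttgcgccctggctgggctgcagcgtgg
The Hey2 window held 1 match, whose first base lies 207 bases before the start site, and the other 3 windows held none. The window of Nrarp, another target gene that was higher in mural-like cells, is not shown and held 0 matches. The set of RefSeq promoter sequences used here (GRCm38.p6) held 8 of the 10 members, with 9 start sites. That set had no entry for the target genes Hes1 and Hey1, so these windows cover receptors and ligands only. Of these 9 windows 0 held TGGGAA, where 21.6% of 32851 promoter windows of this length did. Among windows of other Notch pathway genes, Hey2 included, 13 of 53 (24.5%) held it, near the share of all windows. CCGGAA, a core letter string of ETS factors, was in 0 of the 9 windows and in 12.0% of all. No match to one motif overlapped a match to the other. Such counts describe letters in these windows and nothing beyond them.

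The receptors differed in which cell group held the highest level. Notch1 was at 395 CPM (interval 351 to 444) in pericyte-like, 275 (270.2 to 281) in arterial-like, 196 (193 to 198) in capillary-like, 154 (134 to 176) in smooth muscle-like and 148 (144 to 152) in venous-like cells, and at 73.4 (67.8 to 79.4) and 63.0 (60.7 to 65.3) in non-traced and traced ependymal-like cells. It was thus above the ependymal level in every vascular group. All neighbours in this order were apart by more than their counting intervals except smooth muscle-like and venous-like cells. Notch4, an endothelial receptor, was at 104 CPM (100.4 to 107) in arterial-like, 65.9 (64.4 to 67.5) in capillary-like, 52.7 (50.2 to 55.3) in venous-like, 41.9 (28.3 to 59.8) in pericyte-like and 22.4 (15.3 to 31.6) in smooth muscle-like cells. In ependymal-like cells it was at 5.19 CPM (3.77 to 6.97, 44 UMIs) without and 2.97 (2.5 to 3.52, 136 UMIs) with the tracing label. The venous-like and pericyte-like intervals overlapped, as did those of the 2 mural groups.

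Notch3, the mural receptor, was nearly all or nothing. It stood at 591 CPM (536 to 649.9) in pericyte-like and 502 (466 to 539.6) in smooth muscle-like cells, and at 3.60 (3.03 to 4.25), 2.40 (2.12 to 2.71) and 2.07 (1.59 to 2.63) in arterial-like, capillary-like and venous-like cells. Ependymal-like cells gave 3 UMIs in the non-traced and 4 in the traced library, or 0.354 CPM (0.0730 to 1.04) and 0.0875 CPM (0.0238 to 0.224). After each cell was thinned to 1000 UMIs, 37.5% of pericyte-like cells (exact binomial interval 30.2 to 45.3) and 0.223% of capillary-like cells (0.151 to 0.316) had a Notch3 UMI. Without thinning the shares were 82.7% and 1.76%, at median depths of 4047 and 6343 UMIs. The endothelial-like level of Notch3 was 0.442% of the pericyte-like level, where 8 mural markers stood at a median of 0.215% (0.172 to 4.72).

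Notch2 was lowest in the 3 endothelial groups. It was at 43.9 CPM (39.6 to 48.6) in non-traced ependymal-like, 37.1 (27.8 to 48.5) in smooth muscle-like, 32.3 (30.7 to 34.0) in traced ependymal-like and 27.9 (17.1 to 43.1) in pericyte-like cells, and at 9.79 (8.73 to 10.9), 7.89 (7.37 to 8.43) and 7.69 (6.84 to 8.61) in venous-like, capillary-like and arterial-like cells. The intervals of neighbours within the ependymal and mural groups overlapped. The lowest of these, 17.1 CPM, was above the highest endothelial bound of 10.9 CPM.

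Among the ligands, Dll4 and Jag2 were endothelial and graded from artery to vein. Dll4 was at 109 CPM (105 to 112) in arterial-like, 63.5 (62.0 to 65.0) in capillary-like and 30.8 (28.9 to 32.8) in venous-like cells, with no overlap of intervals. It was at 19.6 CPM (13.0 to 28.3, 28 UMIs) in smooth muscle-like and 5.59 (1.52 to 14.3, 4 UMIs) in pericyte-like cells. Jag2 was at 115 CPM (112 to 118.5), 49.4 (48.1 to 50.7) and 34.6 (32.5 to 36.7) in the same 3 endothelial groups, 21.0 (14.2 to 30.0) in smooth muscle-like and 9.78 (3.93 to 20.1) in pericyte-like cells. Both were lowest in ependymal-like cells, where Jag2 was at 3.66 CPM (2.49 to 5.19, 31 UMIs) in the non-traced and 2.08 (1.68 to 2.54, 95 UMIs) in the traced library. Dll4 was at 2.01 CPM (1.17 to 3.21, 17 UMIs) and 0.0656 (0.0135 to 0.192, 3 UMIs). The non-traced intervals of both overlapped those of pericyte-like cells.

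Jag1 was shared between artery and vessel wall. It was at 227 CPM (203 to 253) in smooth muscle-like, 149.8 (146 to 154) in arterial-like, 119 (94.8 to 147) in pericyte-like, 58.0 (55.4 to 60.8) in venous-like, 49.4 (48.1 to 50.8) in capillary-like, 21.5 (20.2 to 22.9) in traced and 18.4 (15.6 to 21.5) in non-traced ependymal-like cells. The arterial-like and pericyte-like intervals overlapped, and so did those of the 2 ependymal groups. Dll1 was low throughout, from 16.3 CPM (15.2 to 17.5) in traced and 12.0 (9.82 to 14.6) in non-traced ependymal-like cells to 9.92 (8.85 to 11.1) in venous-like, 7.69 (6.84 to 8.61) in arterial-like, 7.05 (6.56 to 7.56) in capillary-like, 5.60 (2.42 to 11.0) in smooth muscle-like and 1.40 (0.0354 to 7.78, 1 UMI) in pericyte-like cells.

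The target genes did not run together. Hey1 was at 209 CPM (204.5 to 214) in arterial-like, 73.1 (71.5 to 74.7) in capillary-like and 14.9 (13.6 to 16.3) in venous-like cells, and between 12.6 (5.75 to 23.9) and 29.3 (25.7 to 33.1) in the mural and ependymal groups. Hes1 was at 1059 CPM (1006 to 1114) in smooth muscle-like, 952 (942 to 963) in venous-like, 947 (941 to 952) in capillary-like, 707 (646.5 to 771) in pericyte-like, 617 (609.5 to 625) in arterial-like, 487 (472.5 to 502) in non-traced and 308 (303 to 313) in traced ependymal-like cells. Arterial-like cells thus had the highest Hey1 level of the 3 endothelial groups and the lowest Hes1 level. The Hes1 order did not hold between sub-clusters. Its lowest endothelial-like values were 397 and 438 CPM in capillary-like sub-clusters, against 548.5 to 818 CPM in arterial-like ones.

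**Figure D1:**
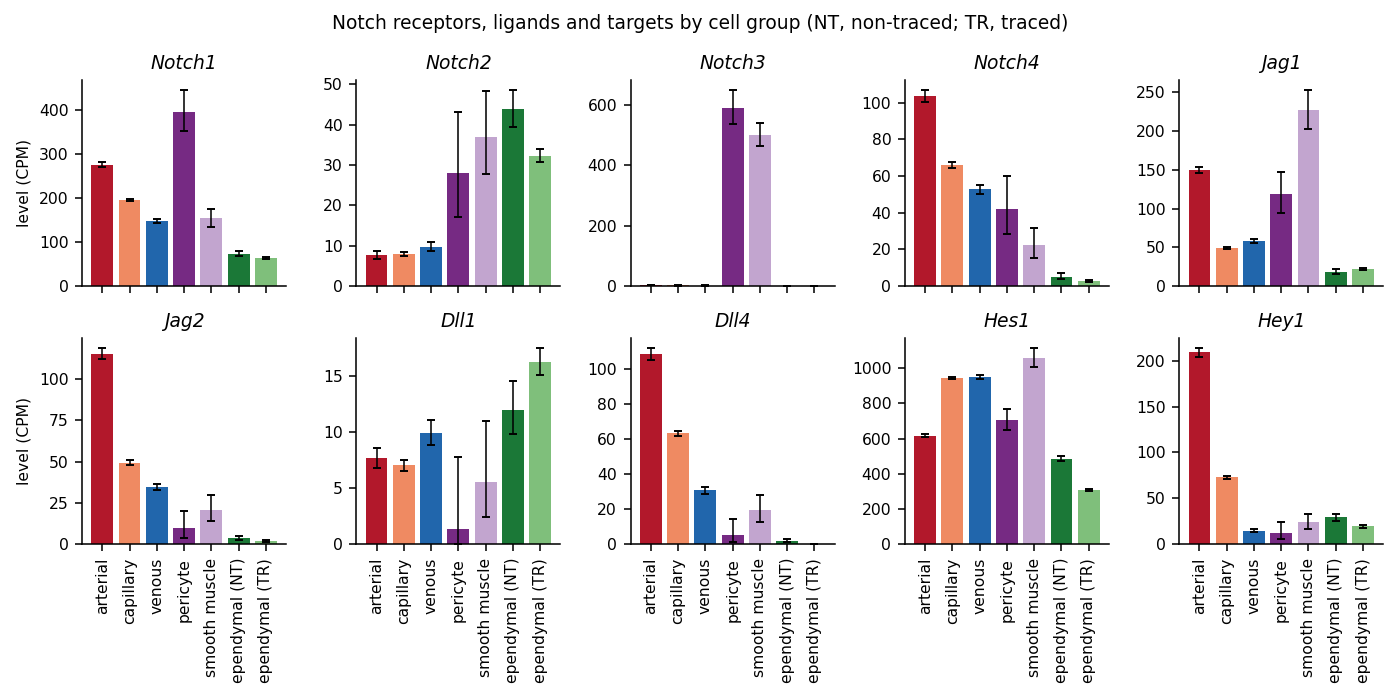
Level of each of the 10 genes (CPM, linear axis from 0, a scale of its own per gene) in 7 cell groups, with bars for the summed counts and whiskers for exact 95% Poisson intervals; NT is the non-traced and TR the traced library. Dll4, Jag2, Notch4 and Hey1 stand highest in arterial-like cells (109, 115, 104 and 209 CPM), and Notch3 is high only in the pericyte-like and smooth muscle-like bars (591 and 502 CPM). Dll1 is highest in both ependymal-like bars. Notch2 is highest in the non-traced ependymal-like bar (43.9 CPM), whose interval overlaps that of smooth muscle-like cells (37.1 CPM).

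The first comparison asked how the genes differ along the endothelial axis within the non-traced library. The 3 contrasts share their cell groups and are not independent. Against capillary-like cells, arterial-like cells had 3 members past 2-fold higher: Jag1 by 3.03-fold (counting interval 2.92 to 3.15, 5829 against 5402 UMIs), Hey1 by 2.86-fold (2.77 to 2.95) and Jag2 by 2.33-fold (2.24 to 2.42). None was past 2-fold lower. Of the 7 members above the minimum level, Dll4 (1.71-fold, 1.65 to 1.78), Notch4 (1.57-fold, 1.51 to 1.63) and Notch1 (1.41-fold, 1.38 to 1.44) were higher by less than 2-fold, and Hes1 was at 0.652 of the capillary-like level (0.643 to 0.661). In this contrast 2.88% of 8434 genes were past 2-fold higher and 1.13% lower. The median log2 difference was 0.77 over the 7 members and 0.03 over all genes tested.

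Venous-like cells had 2 members past 2-fold lower than capillary-like cells, Hey1 (14.9 against 73.1 CPM, 4.90-fold lower, 4.46 to 5.39) and Dll4 (30.8 against 63.5 CPM, 2.06-fold lower, 1.93 to 2.20), and none higher, where 0.671% of 8342 genes were lower and 1.32% higher. Dll4, with a log2 difference of -1.02, lies at the edge of the 2-fold limit. Jag2 (0.699 of the capillary-like level), Notch1 (0.756) and Notch4 (0.80) were lower by less than 2-fold, Jag1 was at 1.17-fold (1.11 to 1.24), and Hes1 was at 1.01-fold (0.993 to 1.02). The median was -0.40 over 7 members and -0.02 over all genes.

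Set against venous-like cells directly, arterial-like cells had 4 members past 2-fold higher and none lower: Hey1 by 14-fold (12.8 to 15.4, 8132 against 469 UMIs), Dll4 by 3.52-fold (3.29 to 3.78), Jag2 by 3.33-fold (3.12 to 3.56) and Jag1 by 2.58-fold (2.45 to 2.72). Notch4 just missed the limit at 1.97-fold (1.86 to 2.08) and Notch1 was at 1.86-fold (1.80 to 1.93). Hes1 was at 0.648 of the venous-like level (0.637 to 0.659). Here 3.73% of 8534 genes were past 2-fold higher and 2.77% lower, and the median was 1.35 over 7 members against 0.06 over all genes.

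The 3 arterial-like sub-clusters were not alike. Jag1 was at 85.0 CPM in the largest of them (2584 cells, with haemoglobin genes among its leading genes), at 275 CPM in the sub-cluster led by Mgp, Cytl1 and Fbln5 (839 cells) and at 299 CPM in that led by Pi16 and S100a4 (541 cells). All 3 values were above the 45.5 to 52.5 CPM of the 6 capillary-like sub-clusters. Jag2 had the same order, at 102, 138 and 151 CPM. Dll4 did not: it was at 104, 140 and 85.4 CPM. Hey1 was at 205, 258 and 152 CPM, and Notch4 was at 99.2, 120.3 and 101 CPM. Without the sub-cluster led by haemoglobin genes, an alternative chosen after the data were seen, the log2 difference of Jag1 from capillary-like cells was 2.5 in place of 1.58, and Notch4 was also past 2-fold higher than in venous-like cells, which brought that count to 5.

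Within the capillary-like class, Hey1 spanned 31.1 to 135 CPM. It was at 31.1 and 34.0 CPM in the sub-clusters led by Hspa1b and by mt-Ts2, at 60.9 and 87.0 CPM in those led by Ivns1abp and by 1810011O10Rik and Egr1, and at 121 and 135 CPM in the 2 led by Gm9946 and Cd300lg. Those 2 thus approached the lowest arterial-like value of 152 CPM. Notch1 had the 2 same low sub-clusters, at 163 and 146 CPM against 211 to 227 CPM in the other 4. In the venous-like class, the small sub-cluster led by Lrg1 and Ackr1 (119 cells) held Dll1 at 26.2 CPM (34 UMIs), the highest Dll1 value of the 12 endothelial-like sub-clusters, where the other 11 gave 4.14 to 12.3 CPM.

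**Figure D2:**
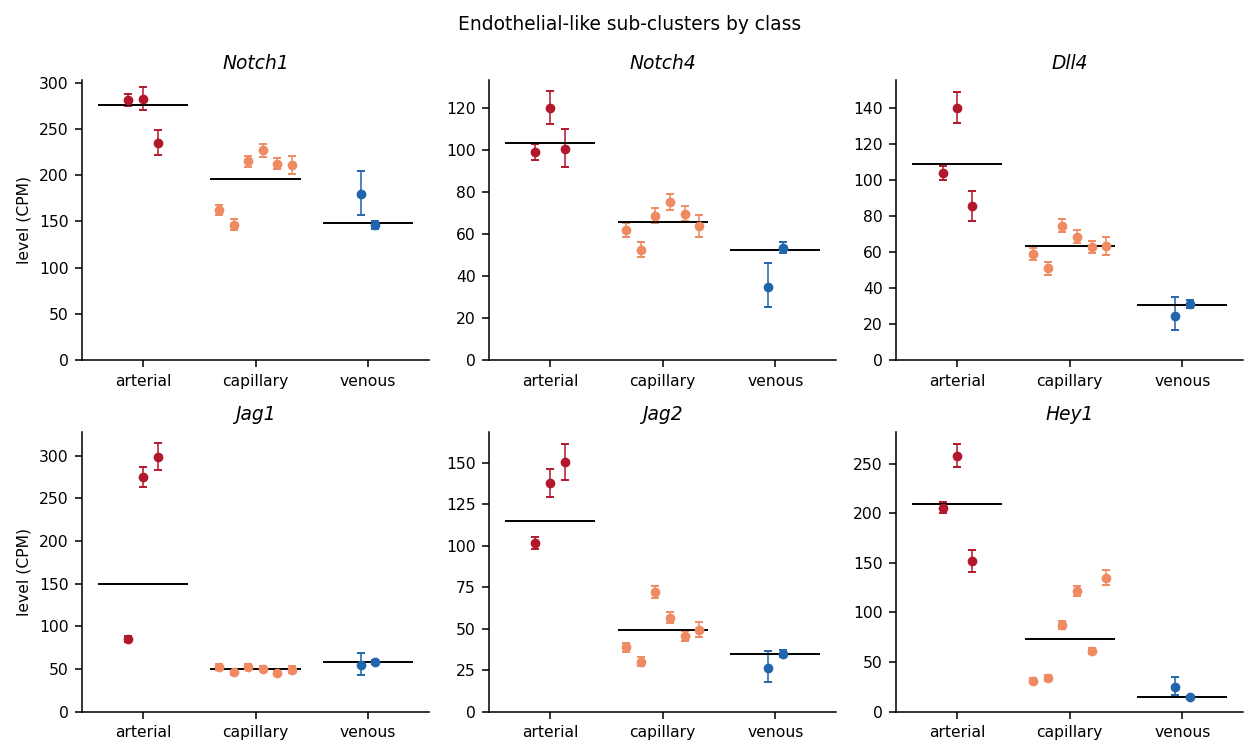
Level (CPM, linear axis from 0) of 6 genes in the arterial-like, capillary-like and venous-like endothelial sub-clusters of the non-traced library; points are sub-clusters with exact 95% Poisson intervals and black lines the level summed over the class. For Dll4, Jag2, Notch4 and Jag1 every arterial-like point lies above every capillary-like and venous-like point, and Jag1 is split within the arterial-like class (85.0, 275 and 299 CPM).

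Few genes of the rest of the pathway were past 2-fold along this axis, as was so over all genes. Of 50 further Notch pathway genes, covering other ligands and targets, glycosylation, ubiquitin and endocytosis, proteolysis and nuclear cofactors, 36 were above the minimum in the arterial-like against capillary-like contrast and 1 was past 2-fold. This was Nrarp, a target that feeds back on the pathway, at 41.7 against 18.7 CPM (named after its value was seen, since it is below the 50 CPM set for names). None of 34 was past 2-fold in the venous-like against capillary-like contrast and none of 36 in the arterial-like against venous-like contrast. Over all genes, 2.88% were past 2-fold higher and 1.13% lower in the first of these contrasts. The shares were 1.32% and 0.671% in the next and 3.73% and 2.77% in the last. Counts in so few pathway genes are near these shares.

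The next comparison set the vessel wall against its endothelium. Summed over 309 mural-like cells, 3 members were past 2-fold higher than in endothelial-like cells: Notch3 by 203.5-fold (183 to 227, 531 against 2.61 CPM), Notch2 by 4.16-fold (3.24 to 5.27) and Jag1 by 2.62-fold (2.37 to 2.90). Another 4 were past 2-fold lower: Hey1 by 4.60-fold (3.41 to 6.36), Dll4 by 4.53-fold (3.21 to 6.63), Jag2 by 3.54-fold (2.56 to 5.02) and Notch4 by 2.48-fold (1.94 to 3.24). Notch1 was at 1.15-fold (1.05 to 1.25) and Hes1 at 1.07-fold (1.03 to 1.12), and each changed sign with the setting (log2 differences from -0.41 to 0.95 and from -0.32 to 0.36). Without cells called doublets by Scrublet only Notch2, Notch3 and Jag1 were past 2-fold, and the log2 differences of Notch4, Jag2, Dll4 and Hey1 were -0.87, -0.80, -0.85 and -0.76. Of all 9393 genes, 14% were past 2-fold higher and 12.3% lower. The median was 0.10 over the 9 members above the minimum and -0.02 over all genes.

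Notch1 was higher in pericyte-like cells and Jag1 in smooth muscle-like cells. Notch1 was 2.57-fold higher in pericyte-like cells (2.15 to 3.08, 283 against 220 UMIs) and Jag1 was at 0.524 of the smooth muscle-like level (0.408 to 0.667, 85 against 324 UMIs). Hes1 was at 0.667 (0.602 to 0.739) and Notch3 at 1.18-fold (1.04 to 1.33). Notch4 was 1.87-fold higher in pericyte-like cells (1.10 to 3.18, 30 against 32 UMIs). For Notch2 the interval of the ratio ran from 0.427 to 1.28. Taking pericyte-like cells alone against endothelial-like cells left 5 members past 2-fold, without Notch4 and Jag1, and smooth muscle-like cells alone left 7.

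The levels were also set beside the endothelial transcripts in these clusters. Of the 309 mural-like cells, 161 had less than 10% of the endothelial-like level of endothelial markers and of the ependymal-like level of ependymal markers. In the 84 pericyte-like cells among them, where the endothelial markers stood at a median of 4.30% of their endothelial-like level (3.10 to 7.32), Notch1 was at 179%, Notch4 at 52.4%, Jag1 at 198%, Jag2 at 10.3% and Dll4 at 4.63% of the endothelial-like level. Notch1, Jag1 and Notch4 thus stood far above these markers, while Dll4 (1 UMI) lay within their range. In the 77 such smooth muscle-like cells, with the markers at 2.55% (1.93 to 3.57), Jag1 was at 421%, Notch1 at 63.8%, Hey1 at 8.96%, Notch4 at 6.90%, Jag2 at 5.42% and Dll4 at 2.44%. Over all 141 smooth muscle-like cells Notch4 had been at 31.2%, Jag2 at 34.4% and Dll4 at 29.0%, close to the 27.9% of the markers. In the chosen smooth muscle-like cells Notch4, Jag2 and Dll4 rested on 3, 2 and 1 UMIs. The low marker values follow from how these cells were chosen. The part of endothelial transcripts in the levels of these genes was not tested. Notch3 was at 717 CPM in the chosen and 591 CPM in all pericyte-like cells, and at 679 and 502 CPM in smooth muscle-like cells. In the chosen cells the Notch4 ratio of pericyte-like to smooth muscle-like cells was 7.58 (2.05 to 41.9), which rests on 12 against 3 UMIs, where it was 1.87 over all cells.

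**Figure D3:**
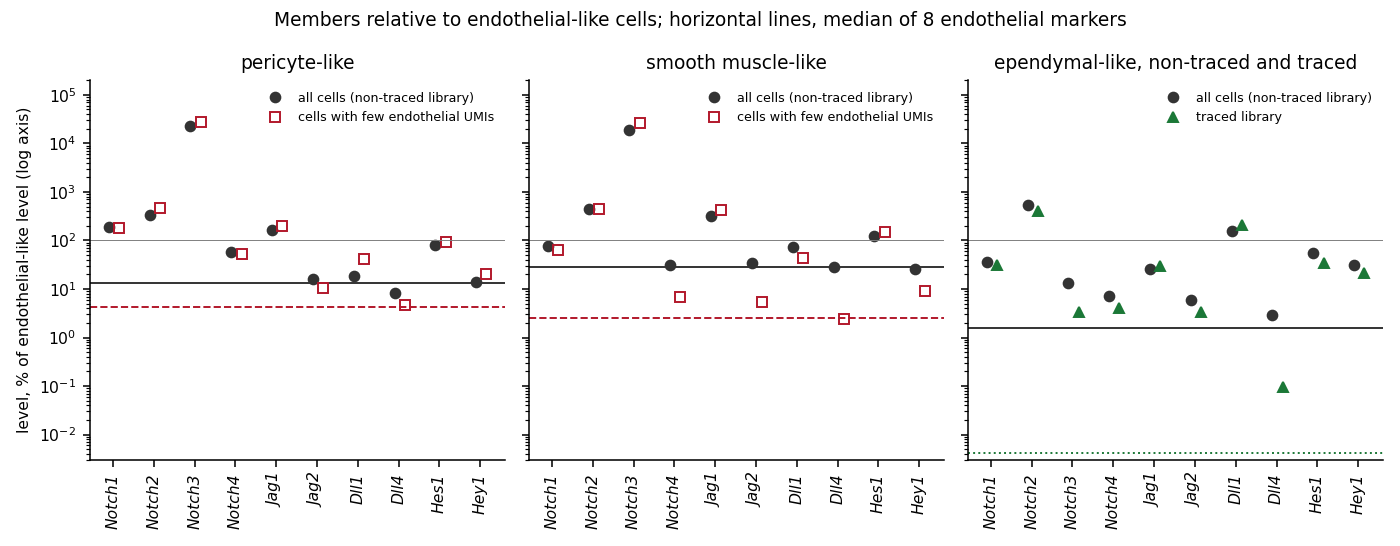
Level of each gene as a percentage of its level in non-traced endothelial-like cells (log axis; the grey line marks 100%) in pericyte-like, smooth muscle-like and ependymal-like cells. Filled circles are all cells of the non-traced library, red squares the cells with few UMIs of other classes, green triangles the traced library, and the horizontal lines of matching color the median of the 8 endothelial markers in the same cells. Dll4 lies on or near the marker line in the mural panels, whereas Notch2 and Notch3 lie above 100% there, and in traced ependymal-like cells the markers fall to 0.00411% while Notch1 stays at 30.8%.

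The target genes Heyl, Hey2 and Nrarp were higher in mural-like cells. Of 40 pathway genes above the minimum, 9 were past 2-fold higher in mural-like cells and 5 lower. Among all 9393 genes tested in this contrast, 14% were past 2-fold higher and 12.3% lower. The count of lower pathway genes is near the latter share. Heyl was at 215 CPM in pericyte-like and 111 in smooth muscle-like cells against 0.865 in endothelial-like cells, and Hey2 was at 129.9 and 112 against 1.53 CPM. Both encode repressors of the family of Hey1, which ran the other way (12.6 and 23.8 against 92.2 CPM). Nrarp was at 156 and 143 CPM against 24.6, and Dtx3, of the Deltex family, at 349 and 90.9 against 19.1 CPM. Hes6, of the Hes family, was at 24.7 CPM in mural-like and 24.5 in endothelial-like cells, and Hes5 and Hes7 had 0 and 1 UMIs in mural-like cells. Adam10, the protease of ligand-induced cleavage, was at 69.0 CPM in mural-like against 192 in endothelial-like cells, and Mfng, a Fringe glycosyltransferase, at 22.4 against 79.5 CPM.

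Ependymal-like cells of the same library were then compared with endothelial-like cells. Here 6 members were past 2-fold lower and 1 higher. Dll4 was at 2.01 CPM (17 UMIs) against 67.6, Jag2 at 3.66 against 61.0, Notch4 at 5.19 against 71.8, Jag1 at 18.4 against 72.6, Hey1 at 29.3 against 92.2 and Notch1 at 73.4 against 204.5 CPM. These are differences of 33.7-fold (21.0 to 57.9), 16.7-fold (11.7 to 24.5), 13.8-fold (10.3 to 19.0), 3.95-fold (3.37 to 4.65), 3.15-fold (2.78 to 3.58) and 2.79-fold (2.57 to 3.02). Notch2 was 5.37-fold higher (4.78 to 6.02), while Dll1 was 1.57-fold higher (1.27 to 1.92; log2 difference 0.59, but -0.32 without Scrublet calls) and Hes1 at 0.556 of the endothelial-like level (0.539 to 0.574). As background, 19.6% of 10511 genes were past 2-fold lower and 27.2% higher. The median was -1.62 over 9 members and 0.08 over all genes.

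The endothelial markers stood at a median of 1.55% of their endothelial-like level in these ependymal-like cells (1.13 to 2.14), beside 2.97% for Dll4, 6.00% for Jag2, 7.23% for Notch4 and 25.3% to 35.9% for Jag1, Hey1 and Notch1. The traced library, with few endothelial cells, gives the same quantities with less endothelial RNA, the markers being at a median of 0.00411% (0 to 0.240). There Dll4 was at 0.0970% (3 UMIs), Jag2 at 3.41% (95 UMIs), Notch4 at 4.14% (136 UMIs), Hey1 at 21.1%, Jag1 at 29.6% and Notch1 at 30.8%. Notch1, Jag1 and Hey1 were thus still at 63.0, 21.5 and 19.4 CPM where endothelial transcripts were nearly gone, and Dll4 was at 0.0656 CPM. After thinning to 1000 UMIs, a Notch1 UMI was in 6.10% of the traced cells (5.43 to 6.82) and 6.26% of the others (4.91 to 7.84), and a Dll4 UMI in 0.0212% (0.000538 to 0.118) and 0.0894% (0.00226 to 0.497). Without thinning these shares were 41.6%, 39.6%, 0.0637% and 1.52%. At the 3′ end of Notch1 the annotation places 0610009E02Rik on the other strand, which was at 25.0 CPM in the non-traced ependymal-like cells and 19.9 in the traced ones against 2.44 in endothelial-like cells. Whether the counting separated strands there is not given in the sources used here. Other listed genes overlap Notch3, Dll1 and Dll4. Of these, Gm14207 at Dll4 was at 12.4 CPM in endothelial-like and 6.525 CPM in mural-like cells, with 0 UMIs in ependymal-like cells of either library. The effect of such overlaps on the levels was not tested.

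Of 40 further pathway genes, 7 were past 2-fold higher in non-traced ependymal-like than in endothelial-like cells and 10 lower. Over all genes tested in this contrast, 27.2% were past 2-fold higher and 19.6% lower. Dner, an atypical Notch ligand, was at 311 against 0.488 CPM, Dtx1 at 56.1 against 0.0610 (11 UMIs), Dtx3 at 111 against 19.1, the γ-secretase subunit gene Aph1b at 72.6 against 9.05 and Rbpj at 92.6 against 42.3 CPM. Lower were Mfng (1.30 against 79.5 CPM), Adam10 (62.2 against 192), Epn2, an endocytic adaptor (58.5 against 164), Aph1a (41.4 against 105) and Adam17 (19.7 against 56.3). Traced ependymal-like cells gave 312 CPM for Dner, 48.6 for Dtx1, 105 for Dtx3, 66.7 for Aph1b and 96.4 for Rbpj.

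Among ependymal-like sub-clusters, the one led by Ucma is described because of its values for Notch2, Jag1 and Dll1, and so was chosen after they were seen. It held 246 non-traced and 204 traced cells, each clustered apart. Notch2 was at 64.2 CPM (113 UMIs) against 38.6 in the other ependymal-like cells of the non-traced library, 1.66-fold (1.32 to 2.08), and at 61.3 (129 UMIs) against 30.9 CPM in the traced library, 1.98-fold (1.64 to 2.37). Dll1 was at 4.54 against 14 CPM (0.325 of the level, 0.136 to 0.666) and at 5.23 against 16.8 CPM (0.310, 0.154 to 0.558). Jag1 was at 10.2 against 20.6 CPM (0.497, 0.286 to 0.816) and at 10.45 against 22.1 CPM (0.474, 0.295 to 0.721). The receptor was thus high where the 2 ligands were low, in cells of both sorts. Hey1 was at 1.56-fold (1.17 to 2.06) and 1.53-fold (1.16 to 1.98). Hes1 and Jag2 did not repeat between libraries. Hes1 was at 0.450 of the other cells (0.407 to 0.497) in the non-traced and 1.46-fold (1.37 to 1.56) in the traced library, and Jag2 at 0.565 (0.144 to 1.62) and 3.0-fold (1.49 to 5.52, 12 UMIs). Notch4 was at 1.43-fold (0.671 to 2.85) and 2.38-fold (1.26 to 4.15). Between the traced and non-traced Ucma cells themselves, the ratio was 0.955 for Notch2 (0.736 to 1.24), 1.02 for Jag1 (0.523 to 2.02) and 1.15 for Dll1 (0.421 to 3.29), with intervals too wide at these counts to tell a difference of about 2-fold in the ligands from none. A further non-traced sub-cluster, led by Gm26870 and Sulf1 (114 cells), had Notch2 at 60.0 CPM and Dll1 at 4.80 CPM, with Jag1 at 22.8 CPM.

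The sub-cluster led by Sntn, Sncg and Anxa8 was at the other end for Notch2. It was at 30.7 against 45.5 CPM in the other non-traced ependymal-like cells (0.676, 0.442 to 0.994) and at 21.6 against 35.0 CPM in the traced library (0.617, 0.528 to 0.718), with 99 and 855 cells. Its Jag1 level was at 1.43-fold (0.880 to 2.25) and 1.02-fold (0.870 to 1.20), intervals that include 1, and Dll1 was at 0.902 (0.419 to 1.74) and 0.733 (0.595 to 0.896). Over all 12 ependymal-like sub-clusters Notch1 kept within 53.0 to 87.6 CPM, the narrowest relative range of the receptors and ligands.

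**Figure D4:**
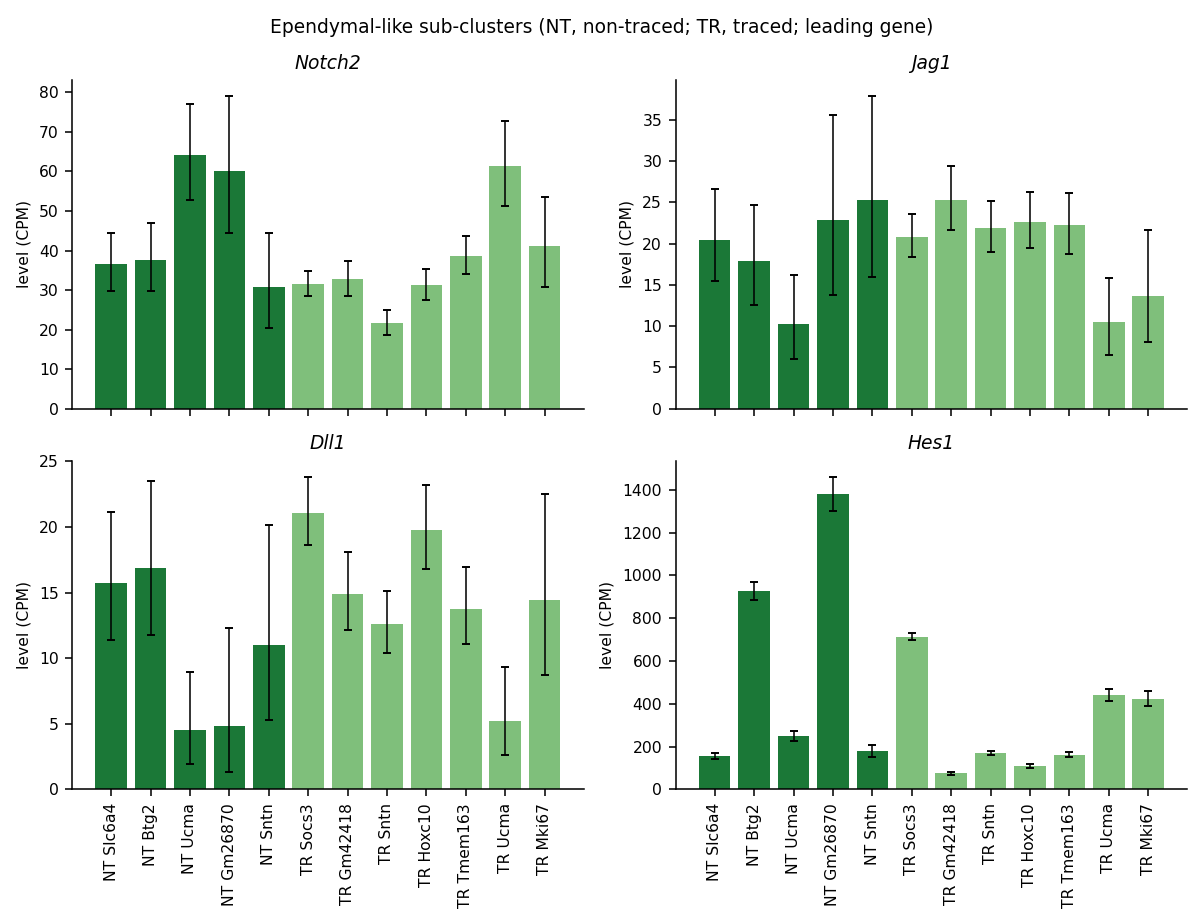
Level of Notch2, Jag1, Dll1 and Hes1 (CPM, linear axis from 0) in 5 non-traced (NT, dark) and 7 traced (TR, light) ependymal-like sub-clusters named by their leading gene; bars are summed counts and whiskers exact 95% Poisson intervals. The Ucma bars of both libraries are the highest of their library for Notch2 (64.2 and 61.3 CPM) and the lowest for Jag1 (10.2 and 10.45 CPM) and Dll1 (4.54 and 5.23 CPM).

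Traced ependymal-like cells were then set against non-traced ones. No member was past 2-fold among the 6 above the minimum level, where 0.815% of 9572 genes were past 2-fold higher and 1.30% lower. The study drew this contrast too, but on other cells and by another measure. Its ependymal group came from integrated libraries, and the non-traced part included cells with angiogenic genes. Genes were counted there by significance, not by fold. Here droplets with ependymal and endothelial markers together were kept apart. Library and tracing label cannot be told apart here, with 1 library each. Hes1 was at 308 against 487 CPM (0.631 of the non-traced level, 0.610 to 0.654), Hey1 at 19.4 against 29.3 (0.663, 0.576 to 0.767), Notch2 at 32.3 against 43.9 (0.737, 0.657 to 0.827) and Notch1 at 63.0 against 73.4 CPM (0.858, 0.787 to 0.937). Dll1 was at 16.3 against 12.0 CPM (1.36-fold, 1.10 to 1.68) and Jag1 at 21.5 against 18.4 (1.17-fold, 0.987 to 1.39). The members below the minimum were Notch3 (4 against 3 UMIs), Notch4 (2.97 against 5.19 CPM), Jag2 (2.08 against 3.66 CPM) and Dll4 (3 against 17 UMIs). The log2 differences of Notch3, Notch4 and Jag2 (-0.32, -0.64 and -0.60) each changed sign under a setting, to at most 0.51, 0.01 and 0.08, and that of Dll4 ran from -3.67 to -0.64. The non-traced cells also carried the endothelial markers described above, and the part of those transcripts in the low values was not tested. The median was -0.32 over the 6 members and 0.03 over all genes. None of 35 further pathway genes was past 2-fold. Without cells called doublets by Scrublet, which left 377 non-traced ependymal-like cells and called none of the traced ones, Dll1 (log2 difference 1.33) and Hes1 (-1.0) were past 2-fold.

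Hes1 moved with genes of the early response to cell stimulation. The summed level of 10 immediate early genes (Fos, Fosb, Jun, Junb, Egr1, Atf3, Ier2, Dusp1, Nr4a1 and Socs3) ranged from 508 to 27410 CPM over 26 sub-clusters. In the traced library Hes1 was at 73.9 CPM in the sub-cluster with the lowest sum (508 CPM, led by Gm42418 and Rn18s-rs5) and at 713 CPM in that with the highest (16380 CPM, led by Socs3, Junb and Atf3), a 9.65-fold span. In the non-traced ependymal-like cells it was at 154 and 177 CPM in the sub-clusters led by Slc6a4 and Runx1 and by Sntn and Sncg, at 248 CPM in that led by Ucma, and at 926.5 and 1380 CPM in those led by Btg2 and Fos and by Gm26870 and Sulf1. The last 2 had sums of 16740 and 21130 CPM, against 1619 to 2986 CPM in the other 3. Endothelial-like sub-clusters ran from 397 CPM of Hes1 at a sum of 2983 CPM to 1389 CPM at 27410 CPM.

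Across sub-clusters, Pearson's r of log2 Hes1 with the log2 sum was 0.87 over 12 endothelial-like, 0.94 over 7 traced and 0.97 over 5 non-traced ependymal-like sub-clusters. These points share their library and its depth and are a description only. For Hey1 the same values were -0.13, 0.61 and 0.23, and for Notch1 0.13, 0.55 and 0.56. When ependymal-like sub-clusters with sums over 10000 CPM were left out in each library, chosen once their values were known, the traced minus non-traced log2 difference of Hes1 was -0.24 in place of -0.66, and that of Notch2 was -0.42 in place of -0.43. All 20626 endothelial-like cells were kept in that setting, with sub-cluster sums up to 27410 CPM, so only the ependymal-like side was trimmed. Against these untrimmed cells Hes1 was then past 2-fold lower in non-traced ependymal-like cells (log2 difference -2.19 in place of -0.85). The capillary-like sub-clusters with sums of 2533 and 2983 CPM had Hes1 at 438 and 397 CPM. The part of the immediate early genes in the Hes1 level was not tested.

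**Figure D5:**
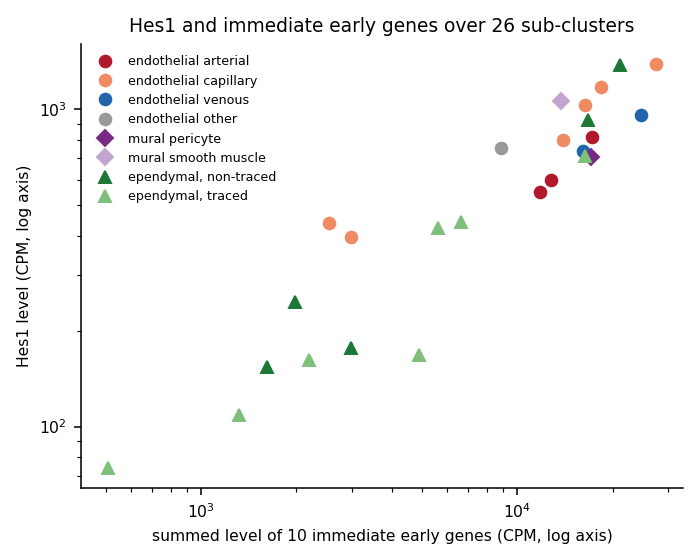
Hes1 level against the summed level of 10 immediate early genes (both in CPM on log axes); each point is 1 of 26 sub-clusters, colored by cell group. Hes1 is low where the sum is low (73.9 CPM at 508 CPM) and high where it is high (1389 CPM at 27410 CPM), in endothelial-like and ependymal-like points alike.

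The 64 endothelial-like cells of the traced library gave a second, small reading of the endothelial levels. They were not split into arterial-like, capillary-like and venous-like cells. Ependymal markers in them stood at a median of 6.35% of the traced ependymal-like level (4.48 to 8.99). Hey1 was at 94.2 CPM (64 UMIs), Jag2 at 61.8 (42 UMIs), Dll4 at 83.9 (57 UMIs), Notch4 at 55.9 (38 UMIs) and Dll1 at 8.83 (6 UMIs), with ratios to the non-traced endothelial-like cells of 1.02 (0.786 to 1.30), 1.01 (0.730 to 1.37), 1.24 (0.939 to 1.61), 0.779 (0.551 to 1.07) and 1.15 (0.421 to 2.51), all with 1 inside the interval, as for Notch2 (0.720, 0.196 to 1.85, 4 UMIs). Other ratios did not include 1: Jag1 was at 1.56-fold (1.23 to 1.95), Notch1 at 0.777 (0.637 to 0.938) and Hes1 at 0.675 (0.611 to 0.745). Notch3 was at 29.4 CPM (20 UMIs), 11.3-fold above the non-traced cells (6.82 to 17.6), in cells whose mural markers stood at a median of 5.13% of their pericyte-like level (2.64 to 14.6). Notch3 was at 4.98% on that scale. In the 49 of these cells with few UMIs of other classes it was at 8.62 CPM (2.35 to 22.1, 4 UMIs), against 2.33 CPM (2.11 to 2.57) in the non-traced cells chosen in the same way.

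The genes with the most similar pattern over the 26 sub-clusters, among 6796 with at least 50 CPM in a sub-cluster, were taken by Pearson's r of log2(CPM + 1) as a description. For Dll4 they were Pdgfd, 8430408G22Rik and Gata2 (r = 0.986, 0.986 and 0.984), for Jag2 Klf3, St8sia6 and Pdgfd (0.968 to 0.966), for Notch4 Fam129b, Heg1 and Klf13 (0.983 to 0.982) and for Notch1 Hrct1, Mndal and Unc5b (0.973 to 0.967). Notch3 was nearest to Gm13861, Aspn and Sept8 (0.982 to 0.977), and Notch2 to Ndrg2, Smim1 and Tsc22d4 (0.970 to 0.966). Jag1 was nearest to Mylk, Ntn4 and Lrrc32 (0.913 to 0.897) and Hey1 to Alox12, Smad6 and Smpdl3a (0.887 to 0.874). For Hes1 they were Coq10b, Junb and Zfp36 (0.961 to 0.940), of which Junb is in the immediate early list, and for the low-count Dll1 they were Pcdh7, Ahcyl2 and Tmem65 (0.80 to 0.744).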

How the data were processed

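Droplet-based 3′ single-cell RNA sequencing was done on 2 libraries, 1 per group. The deposited values are raw UMI counts per gene and cell; the authors made them with Cell Ranger 3.0.2 and STAR 2.5.1b against mm10 with reporter sequences added, per the labels. Each library was clustered alone (2000 variable genes without Notch pathway and reporter genes, 20 components, resolution 0.8; Leiden, scanpy 1.11.5), and classes were clustered again and named from marker genes; clusters with markers of 2 classes were set apart. All cells passed the study's filter. Doublets were kept. Scrublet called 2209 of 25411 non-traced and 0 of 4825 traced cells; whether it failed in the latter or that library held few doublets of unlike cells was not tested. Counts were summed per cell group to CPM with exact Poisson intervals; ratios carry exact conditional binomial intervals; shares use cells thinned to 1000 UMIs (no cell was shallower) with Clopper-Pearson intervals. All cover counting error only. With 1 library per group no test was run. The genes and lists were chosen with earlier results of these data known. A list of erythroid markers was added after the data were seen. Alternatives were Seurat integration, resolution 1.5, a stricter cell filter, Scrublet calls left out, cells with few UMIs of other classes, median-of-ratios scaling, means over cells, a pseudocount of 0.1 in place of 1, no minimum level and thinned cells. All 10 members were named; further pathway genes were named where they passed 2-fold with at least 50 CPM in either group. Scripts were tested on simulated counts.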

Additional observations from a re-analysis of the deposited data

How the results depend on the processing

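Each count of members past 2-fold was recomputed under 10 other settings, and under a few chosen after the data were seen. The counts were 2 or 3 for arterial-like against capillary-like, 3 to 5 for arterial-like against venous-like, and 7 or 8 for non-traced ependymal-like against endothelial-like cells. Venous-like against capillary-like cells gave 1 in place of 2 with both libraries integrated in Seurat, with the stricter filter on cells and with median-of-ratios scaling, since Dll4 then fell short of the limit. Mural-like against endothelial-like cells gave 3 in place of 7 without Scrublet calls, when the clusters named as mural held 380 in place of 309 cells, and 5 to 7 otherwise. Traced against non-traced ependymal-like cells gave 2 in place of 0 without Scrublet calls and 1 with no filter on low values (Dll4, at 3 against 17 UMIs). The cause of these changes was not tested beyond the cell numbers given. Of 60 log2 differences, 12 changed sign under a setting, and 0 of the 25 with a size of at least 1 did. Of 660 recomputed differences, 490 stayed within their counting interval. Smooth muscle-like cells were not set apart under integration or the stricter filter. No paired analysis was possible because each group had 1 library, and for the same reason no replicate could be left out. Depth limits Dll1, Dll4 and Jag2 in pericyte-like cells, which rest on 1, 4 and 7 UMIs.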

Other observations

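Droplets with markers of 2 classes held members of each. In 2335 non-traced droplets with mural and endothelial markers, Notch3 was at 186 CPM beside Notch4 at 66.1, Dll4 at 62.4 and Jag2 at 50.5 CPM. In 779 droplets with ependymal and endothelial markers, Notch2 was at 31.6 CPM beside Notch4 at 40.1 and Dll4 at 34.7 CPM, and Notch3 was at 17.3 CPM. The 71 endothelial-like cells led by Apln, Kit and Angpt2, genes known from sprouting vessels, had Dll4 at 86.9 CPM (63 UMIs), between the capillary-like and arterial-like classes, with Jag1 at 63.5 and Hey1 at 56.6 CPM.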
